A study of Saccharomyces cerevisiae CEN.PK113-7D with 6 samples.

Results

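Volatile esters give fermented drinks much of their fruity aroma, and in brewer's and baker's yeast a small set of enzymes makes and breaks them. Acetate esters form when an alcohol acetyltransferase joins acetyl-CoA to ethanol or to a higher alcohol of the Ehrlich pathway, and ethyl esters form when ethanol takes a medium-chain fatty acid from its CoA ester. Esterases such as the isoamyl acetate-hydrolysing enzyme hydrolyse esters, so the amount of ester depends on synthesis, hydrolysis and the supply of both substrates. The acetyltransferases are encoded by ATF1 and ATF2, of which Atf2p also acetylates steroids. The acyl-CoA:ethanol O-acyltransferases are encoded by EEB1 and EHT1, and IAH1 encodes the hydrolase.

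These 5 genes were chosen by name, from the probe sets annotated to them, out of 5449 Saccharomyces cerevisiae genes measured. Each of the 5 had 1 probe set, so no choice between probe sets was needed. Total RNA of the laboratory strain CEN.PK113-7D, grown on glucose, was hybridised to single-channel arrays, 3 of them for batch cultivation (numbered 1, 2 and 3 in the labels) and 3 for chemostat cultivation (numbered 4, 8 and 9). Nothing is added to a batch culture once it has started, while in a chemostat medium flows in and culture flows out at a set rate that fixes growth. The labels give no genetic change or added agent in either group and describe collection at steady state. They state neither how fast the chemostat was run or which nutrient limited it, nor when the batch samples were taken, nor whether replicates were separate cultures. Values are probe set signals in log2 units, the base being inferred. Differences subtract batch from chemostat, each group has n = 3 arrays, and errors are SDs unless SE is written. In bulk RNA, fewer cells with a transcript and less transcript per cell cannot be told apart.

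Because the genes were chosen with this contrast known, their differences are given as a description, without a p-value. The array medians over genes lay between 7.95 and 7.97, so levels are relative to the rest of the RNA. Background was taken as 5.93, the 95th percentile of the 1746 probe sets that target fission yeast (Schizosaccharomyces pombe) on these arrays. Correlations across genes were at least 0.994 between arrays of a group and at most 0.853 between groups. The mean excess of the 3' end over the 5' end of 8 control transcripts was 0.62 ± 0.03 in batch and 0.63 ± 0.01 in chemostat. Some mating-type markers differed between the groups, as did 78.4% of all genes by limma's test (33.6% higher and 44.8% lower in chemostat). Nothing is therefore read from how many markers passed. Of 4 a-cell genes, all above background in both groups, 3 fell and 1 did not pass limma's test. STE2, the alpha-factor receptor, fell by 2.13 (SE 0.16), BAR1, the alpha-factor protease, fell by 1.56 (SE 0.11) and MFA2, an a-factor gene, fell by 1.33 (SE 0.155), while MFA1 differed by -0.04. Their summed signal (log2) lay between 12.44 and 12.56 in batch and between 11.003 and 11.72 in chemostat. Of 3 alpha-cell genes, 2 rose and 1 did not pass. STE3, the a-factor receptor, rose by 0.53 (SE 0.069), and MF(ALPHA)1 rose from below background in batch, at least 1.5-fold. MF(ALPHA)2 was below background in both groups. The summed alpha-cell signal lay between 7.51 and 7.61 in batch and between 8.07 and 8.17 in chemostat. No background was taken off, and this sum includes the signals below background. Its level and shift therefore do not measure alpha-cell transcript alone. The part of these markers in the differences of the ester genes was not tested.

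The ester genes did not move as a block. EEB1 and ATF2 were much lower in chemostat, EHT1 was modestly lower, ATF1 was modestly higher and IAH1 was slightly higher. All 5 had groups that did not overlap, but so did 81.7% of all genes, so nothing is read from that count. Of all genes, 33.6% were higher and 44.8% lower in chemostat by limma's test at an adjusted p of 0.05, 78.4% in all, beside 2 ester genes with a higher and 3 with a lower mean. The median difference of the 5 genes was -0.50, against -0.06 over all genes. Their median size of difference, regardless of sign, was 0.50, against 0.35 over all genes.

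**Figure D1:**
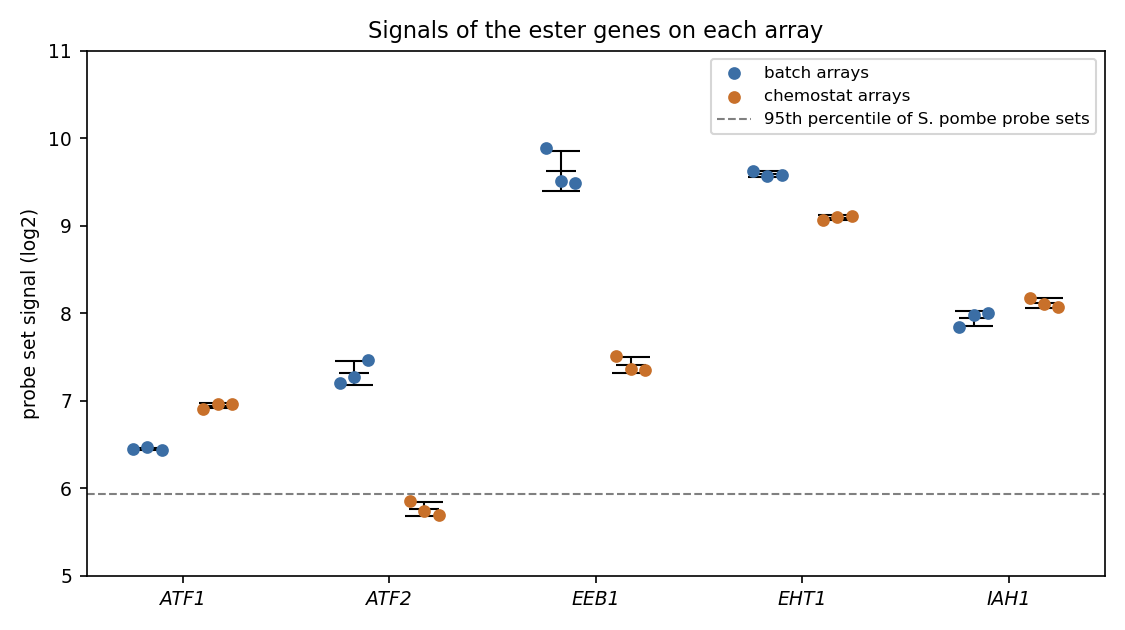
Probe set signal (log2, vertical axis) of the 5 ester genes on each of the 3 batch and 3 chemostat arrays, with points for arrays and bars for the mean and SD. The dashed line is the 95th percentile of S. pombe probe sets (5.93); EEB1 and ATF2 have the widest gaps between groups, and ATF2 lies under the line on the chemostat arrays.

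EEB1 (YPL095C, chromosome XVI), the main ethyl ester synthase for medium-chain fatty acids, showed the largest difference of the 5. Its signal was 9.89, 9.51 and 9.49 on the batch arrays and 7.51, 7.36 and 7.35 on the chemostat arrays. The lowest batch array therefore stood 1.98 above the highest chemostat array, and all chemostat values remained above background. The mean went from 9.63 ± 0.23 to 7.41 ± 0.09, a difference of -2.22 (SE 0.11), or 4.66-fold. Of all genes, 3.14% differed by more in either direction. Batch replicate 1 lay 0.39 above the mean of the other batch arrays for EEB1, the widest departure of any single array among the 5 genes. Leaving out arrays in turn kept the difference between -2.29 and -2.09.

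EHT1 (YBR177C, chromosome II) encodes the paralogous ethanol acyltransferase, which also has thioesterase activity. It read 9.62, 9.57 and 9.58 in batch against 9.06, 9.10 and 9.12 in chemostat. Both groups were tight, spanning 0.06 and 0.05, and were separated by 0.45. The means were 9.59 ± 0.03 and 9.09 ± 0.03, which gives a difference of -0.50 (SE 0.039), or 1.41-fold. A difference of this size was common, since 36.7% of genes had a larger one.

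The paralogues therefore shared a direction but not a size. On each array the EEB1 signal was set against that of EHT1, with the batch mean of this difference at 0. The batch arrays then lay between -0.13 and 0.23, and the chemostat arrays between -1.81 and -1.59. The mean shift of EEB1 relative to EHT1 was -1.72, which is a 3.3-fold change of their ratio, with an SD of 0.20 in batch and 0.12 in chemostat.

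ATF2 (YGR177C, chromosome VII), the acetyltransferase that also detoxifies steroids by acetylation, was the other gene with a wide gap. Its signal was 7.21, 7.28 and 7.47 in batch and 5.86, 5.74 and 5.69 in chemostat. On all 3 chemostat arrays it lay below 5.93, the background level, and batch replicate 3 was the highest of the batch arrays. The mean was 7.32 ± 0.14 in batch and 5.76 ± 0.08 in chemostat. Since the chemostat level is only a bound, ATF2 was at least 2.68-fold lower there, with the S. pombe percentile of each chemostat array in place of its signal. The difference as measured, -1.55 (SE 0.074), became -2.72 after background subtraction on the linear scale.

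ATF1 (YOR377W, chromosome XV) encodes the main acetyltransferase for isoamyl acetate in this species. It differed the opposite way. The batch arrays read 6.45, 6.47 and 6.44 and the chemostat arrays 6.91, 6.96 and 6.96. The arrays spanned 0.025 in batch and 0.054 in chemostat, and the groups were 0.44 apart. The difference was 0.49 (SE 0.037), from 6.45 ± 0.01 to 6.94 ± 0.03, or 1.41-fold, and 37.2% of genes differed by more. Its size depended on the scaling, at 0.29 after quantile normalization and 0.77 after background subtraction on the linear scale. The direction was the same in each of these.

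ATF1 and ATF2 thus moved apart. The ATF1 signal relative to that of ATF2, with the batch mean at 0, lay between -0.16 and 0.11 in batch and between 1.92 and 2.14 in chemostat. With ATF2 held at background in chemostat, the ratio of ATF1 to ATF2 was at least 3.77-fold higher there than in batch. This bound holds for the values as deposited, since the size of the ATF1 difference depended on the scaling.

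IAH1 (YOR126C, chromosome XV) encodes the esterase that hydrolyses isoamyl acetate and other acetate esters. Its signal was 7.84, 7.98 and 8.002 in batch and 8.18, 8.10 and 8.07 in chemostat. The groups were only 0.07 apart, less than the span of 0.16 among the batch arrays. The difference of 0.18 (SE 0.054, means 7.94 ± 0.09 and 8.12 ± 0.05) was 1.13-fold, and 70.7% of genes had a larger one. With each array left out in turn it stayed between 0.13 and 0.21. Relative to ATF1, IAH1 shifted by -0.31 (SD 0.09 in batch and 0.08 in chemostat), a 1.24-fold change of the ratio. Relative to ATF2, also held at background, IAH1 was at least 3.03-fold higher in the values as deposited.

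**Figure D2:**
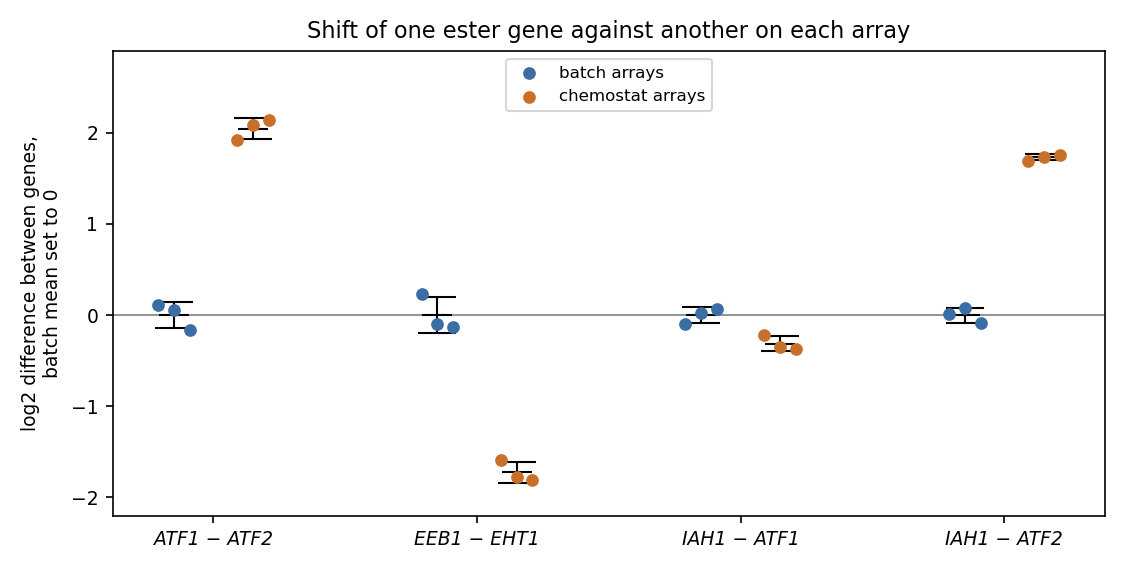
Difference between the log2 signals of a pair of ester genes on the same array (vertical axis), with the batch mean set to 0; points are arrays, bars the mean and SD of 3 arrays. In chemostat ATF1 and IAH1 lie above their batch values relative to ATF2, whose chemostat signal is below background, EEB1 lies below relative to EHT1 (-1.81 to -1.59), and IAH1 lies slightly below relative to ATF1.

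The spread of all genes puts these sizes in proportion. EEB1 ranked 172 of 5449 genes by size of difference, whereas ATF1, EHT1 and IAH1 ranked 2026, 2000 and 3855. These ranks use the values as deposited, and the batch signal of ATF1 (6.45) was not far above background (5.93). After background subtraction the difference was 0.77 for ATF1 and -0.525 for EHT1, so their similar ranks depend on the scaling. ATF2 is given no rank, because its chemostat signal was below background and its difference is only a bound.

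**Figure D3:**
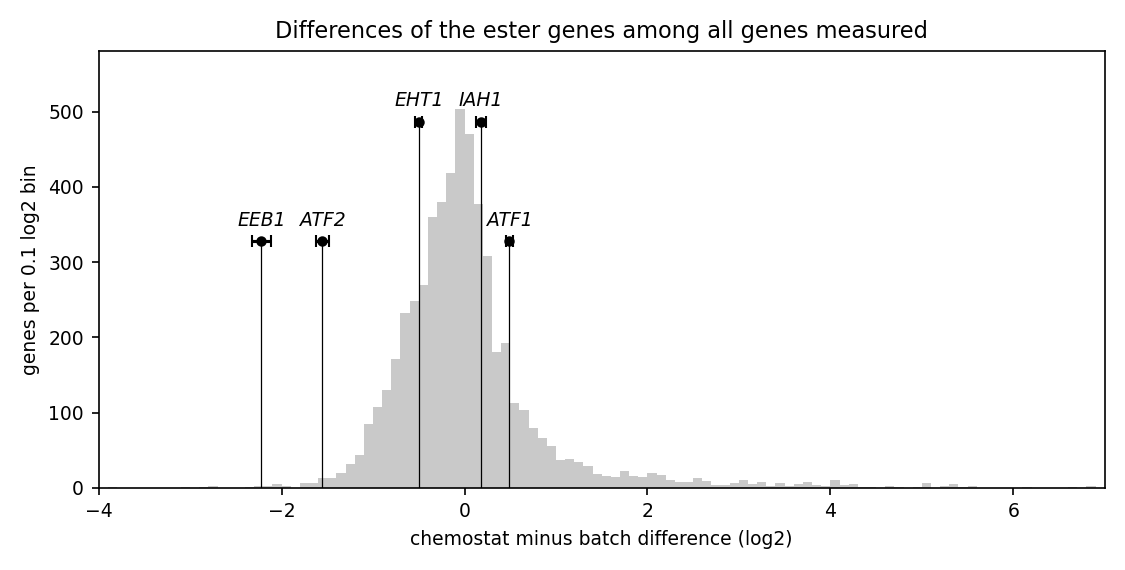
Histogram of the chemostat minus batch difference (log2, horizontal axis) of all 5449 genes in bins of 0.1 (genes per bin, vertical axis), with the 5 ester genes marked and bars for limma's SE; the height of a marker carries no value. EEB1 and ATF2 lie in the left tail, ATF2 at its difference as measured from a chemostat signal below background, and EHT1, IAH1 and ATF1 lie within the body of the distribution.

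For each ester gene, the genes with the most similar profile over the 6 arrays were sought by the root mean square difference between signals centred on each gene's own mean. Most of this likeness reflects the difference between both groups. Nearest to ATF1 was ABF2, a mitochondrial DNA packaging protein, at 0.0037, with a difference of 0.49, followed by SNG1 and MDM36 at 0.017 and 0.019. ATF2 came closest to MKC7, a GPI-anchored aspartyl protease (0.045, difference -1.57), ASP1, the cytosolic asparaginase (0.06, -1.45), and YLR460C (0.061, -1.52). Those distances use the chemostat signals of ATF2 as measured below background. The 3 genes shared with ATF2 a highest batch value on replicate 3. For EEB1 the distances were larger, the nearest gene being ARI1, an NADPH-dependent aldehyde reductase, at 0.11 with a difference of -2.25. The distance is not scaled to the size of a gene's difference or to its spread between replicates, so it is not comparable between the ester genes. For the next, YDL241W and DYS1, the enzyme that starts hypusine formation, the distance was 0.185 and 0.193. EHT1 lay nearest to FYV7, RPL24A and DPH6, at 0.013, 0.017 and 0.02. IAH1 lay nearest to IRC21, PRE4, a proteasome subunit, and MED8, a Mediator subunit, at 0.021, 0.023 and 0.025.

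The genes next to EEB1 and ATF2 on the chromosome differed by small amounts. Beside EEB1, PNG1, a peptide N-glycanase, rose by 0.21 (SE 0.059, limma adjusted p = 0.0112) and SEC62, of the protein translocation machinery, fell by 0.28 (SE 0.059, limma adjusted p = 0.00263). Beside ATF2, ERG1, the squalene epoxidase of sterol synthesis, differed by 0.07 and did not pass (limma adjusted p = 0.2), and PBP1 fell by 0.17 (limma adjusted p = 0.0106), a call that ended without chemostat replicate 8 (limma adjusted p = 0.0528). Next to EHT1, ECM31, of pantothenate synthesis, fell by 0.30 and FZO1, the mitochondrial fusion GTPase, rose by 0.25. Next to ATF1, AMF1 dropped from 6.15 ± 0.10 to below background and was at least 1.19-fold lower, and YOR376W-A was below background in both groups. CAT5 and RGA1, which flank IAH1, differed by 0.13 and 0.08 and did not pass (limma adjusted p = 0.0505 and 0.114). CAT5 passed with 5 of the other settings, batch replicate 3 or chemostat replicate 9 left out among them (limma adjusted p = 0.0498 and 0.0411), and RGA1 passed without batch replicate 1 (limma adjusted p = 0.0445) and with S. pombe centring (limma adjusted p = 0.0481).

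The genes that supply substrates, act on related esters or regulate ATF1 were taken as 7 lists that leave out the 5 ester genes. Of 65 genes measured, 31 rose, 24 fell and 10 did not pass limma's test, that is 84.6% passed against 78.4% of all genes, of which 33.6% rose and 44.8% fell. The median difference of the listed genes was 0.075. These lists were chosen with earlier results of these data known. Their counts, set beside those of all genes, are therefore a description only. EAT1 and MGL2 were not analysed here.

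Transcripts of the acetyl-CoA supply genes moved mostly upwards, while acetyl-CoA itself was not measured. Of 8 genes 6 rose and 2 fell, with a median of 1.6, beside 33.6% higher and 44.8% lower of all genes. ACS1, the acetyl-CoA synthetase of glucose-derepressed cells, rose by 4.66 (SE 0.043, limma adjusted p = 1.18e-10), from 7.30 ± 0.05 to 11.96 ± 0.04. ALD4, the mitochondrial aldehyde dehydrogenase, rose by 3.88 (SE 0.22) with a wide batch spread (SD 0.52). ACS2, the synthetase used on glucose, fell by 0.39 (SE 0.067), and ALD5 fell by 0.29 (SE 0.041).

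Transcripts of the fatty acyl-CoA supply genes, listed for the substrate side of EEB1 and EHT1, went both ways (median 0.74). Of 13 genes 7 were higher, 4 were lower and 2 did not pass. That is 84.6% passed against 78.4% of all genes, of which 33.6% were higher and 44.8% lower. Not all of these genes act on medium-chain substrates, and no acyl-CoA was measured. FAS1 and FAS2, the subunits of cytosolic fatty acid synthase, rose by 0.98 (SE 0.062) and 0.74 (SE 0.068). FAA2, a medium-chain acyl-CoA synthetase of peroxisomes, rose by 2.83 (SE 0.039), from 6.32 ± 0.01 to 9.16 ± 0.04. OLE1, the fatty acid desaturase that shares oxygen and lipid control with ATF1, rose by 1.05 (SE 0.095, limma adjusted p = 1.51e-05). Its batch values were 11.02, 10.64 and 10.67, so batch replicate 1 was high here as for EEB1. FAT1, a very long-chain acyl-CoA synthetase, fell by 1.02 (SE 0.054), and ELO1, the medium-chain elongase, fell by 1.01 (SE 0.057).

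The Ehrlich pathway supplies the higher alcohols that Atf1p and Atf2p acetylate. Among its transaminases, decarboxylases and the regulator ARO80, 5 of 10 rose, 4 fell and 1 did not pass (median 0.16). The branched-chain transaminases parted, since mitochondrial BAT1 fell by 1.084 (SE 0.041) and cytosolic BAT2 rose by 1.87 (SE 0.060). The aromatic transaminases parted likewise: ARO8 fell by 0.58 (SE 0.069) and ARO9 rose from below background to 8.81 ± 0.06, at least 7.16-fold. PDC6, a minor pyruvate decarboxylase, rose by 3.17 (SE 0.27) with an SD of 0.46 in batch and 0.47 in chemostat. Of the 8 alcohol dehydrogenases 2 rose, 5 fell and 1 did not pass (median -0.49). The gene that did not pass, ADH7, was below background in both groups, so a lack of change cannot be read from it. ADH2, which oxidises ethanol, rose by 5.56 (SE 0.074) and SFA1 rose by 0.50 (SE 0.056), while ADH6, an NADPH-dependent enzyme, fell by 1.03 (SE 0.040) and ADH4 fell by 0.86 (SE 0.051).

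**Figure D4:**
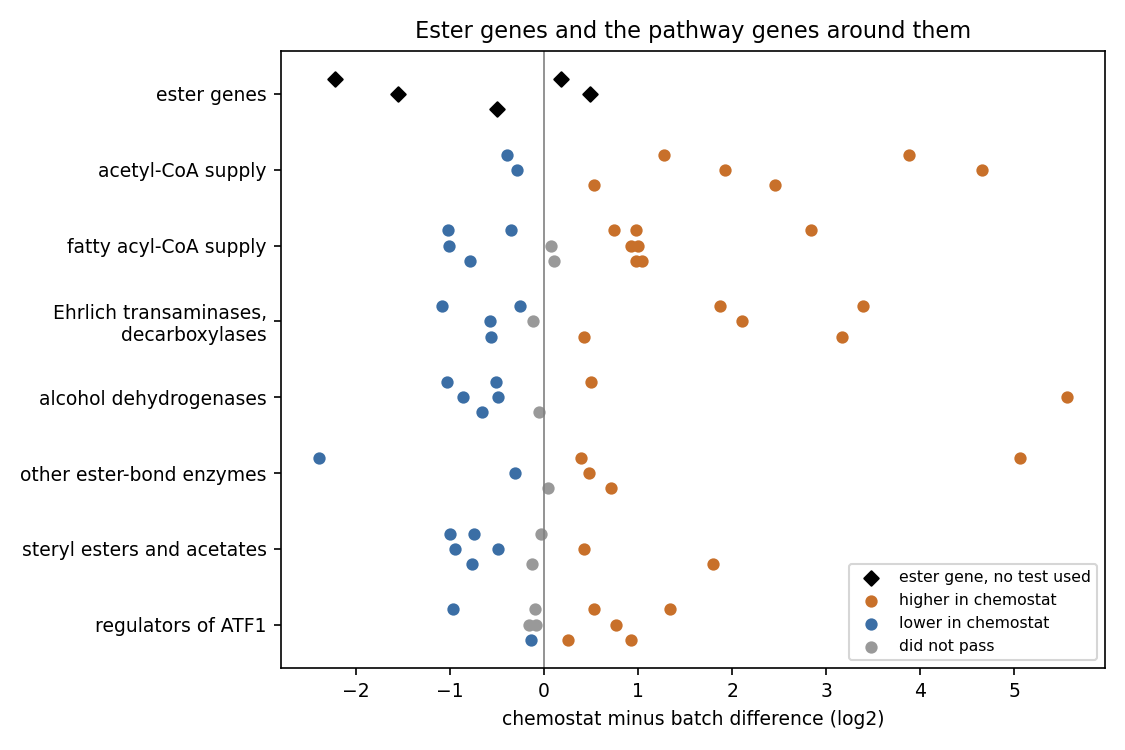
Chemostat minus batch difference (log2, horizontal axis) of the 5 ester genes (black diamonds, not tested) and of 65 genes in 7 surrounding lists, coloured by whether they passed limma's test as higher or lower or did not pass; the vertical offset within a list carries no value. Acetyl-CoA supply lies mostly to the right, and the other lists spread to both sides of 0.

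Other enzymes of ester bonds went both ways, with 4 of 7 higher, 2 lower and 1 that did not pass (median 0.40). TIP1, a cell wall mannoprotein with reported esterase activity, rose by 5.06 (SE 0.17), from 8.09, 7.39 and 7.43 in batch to a mean of 12.69 ± 0.05. YJL068C, the S-formylglutathione hydrolase, rose by 0.72 (SE 0.042). FSH1, a serine hydrolase, fell by 2.39 (SE 0.054, limma adjusted p = 8.66e-09), a size close to that of EEB1, and its relative FSH2 fell by 0.30 (SE 0.056).

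Steryl ester and steryl acetate genes, next to the steroid role of ATF2, numbered 2 higher, 5 lower and 2 that did not pass of 9 (median -0.49). SAY1, the deacetylase that reverses acetylation by Atf2p, differed by -0.12 (SE 0.052) and did not pass (limma adjusted p = 0.0577). It passed after quantile normalization (-0.16, limma adjusted p = 0.0222), without batch replicate 3 (limma adjusted p = 0.039) and without chemostat replicate 4 (limma adjusted p = 0.0379). PRY1 and PRY2, which export steryl acetates, rose by 1.79 (SE 0.086) and 0.43 (SE 0.092). Of the steryl ester hydrolases, YEH1 and YEH2 fell by 0.996 (SE 0.051) and 0.95 (SE 0.046). TGL1, also a steryl ester hydrolase, differed by -0.03 (SE 0.058) and did not pass (limma adjusted p = 0.602).

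Regulators tied to ATF1 made up the last list, of which 5 of 10 rose, 2 fell and 3 did not pass (median 0.09). MGA2, the membrane-bound activator of OLE1 whose loss lowers ATF1 transcription, rose by 0.93 (SE 0.085, limma adjusted p = 1.54e-05), from batch values of 7.27, 6.91 and 7.03 to between 7.96 and 8.04 in chemostat. ROX1, the heme-induced repressor of hypoxic genes, rose by 0.53 (SE 0.042). The protein kinase A subunit TPK2 rose by 1.34 (SE 0.048), TPK3 fell by 0.96 (SE 0.051) and the kinase SCH9 fell by 0.13 (SE 0.040, limma adjusted p = 0.0142). Batch replicate 1 was the highest batch array for EEB1, OLE1, TIP1 and MGA2 alike, genes singled out after their values were seen. Without that array the difference of EEB1 was -2.09, which was the smallest in size of the 6.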

How the data were processed

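The authors deposited 1 signal per probe set and array, and PLIER is the tool named, per the submitters' processing notes. No source used here states its version, its offset or any step between arrays. The deposited values run from 4.95 to 13.32 and were read as log2, a base inferred from that range. A different base would multiply every difference by a constant. They were used as deposited. Precision is limited by the number of arrays.

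Of 10928 probe sets, 5498 matched 1 S. cerevisiae gene through the platform annotation and the gene table of assembly R64, which gave 5449 genes. The brightest probe set stood for the 47 genes with several. Chemostat was compared with batch by limma 3.58.1 in R 4.3.3 (lmFit and eBayes, no covariates, two-sided), and p-values were adjusted after Benjamini and Hochberg over the whole set of genes, with 0.05 as threshold. Errors are SDs over 3 arrays or limma's SE. A gene below background in 1 group has only a bound, for which each array of the dim group enters with its signal or its S. pombe percentile, whichever is higher. The script was tested on simulated data.

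The members, lists and tests were chosen with earlier results of these data known. Named are the 5 ester genes, up to 2 of the largest passing rises and falls per list, a set of fixed genes, the 3 nearest profiles of each ester gene and its chromosomal neighbours. Outside this rule, TGL1 and ADH7 are named because they did not pass. Since separate cultures are not stated, the spread behind the p-values may be technical. Sequences were not used here.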

Additional observations from a re-analysis of the deposited data

How the results depend on the processing

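Alternatives were quantile normalization, centring on the gene or S. pombe median, background subtraction with a floor of 16, the mean of probe sets, a filter on dim genes, a trended robust variance, a threshold of 0.01, a required change of 1.5-fold (treat) and each array left out. The 5 ester genes kept their direction and did not overlap under any scaling tried. ATF1 moved to 0.29 with quantile normalization, 0.52 with S. pombe centring and 0.77 with background subtraction. ATF2, at -1.55 with its signal as measured, moved to -1.70 with quantile normalization and -2.72 with background subtraction, and EEB1 moved to -2.49 with the latter. Leaving out arrays gave 0.48 to 0.51 for ATF1, -1.61 to -1.48 for ATF2, -2.29 to -2.09 for EEB1, -0.51 to -0.48 for EHT1 and 0.13 to 0.21 for IAH1. Requiring a 1.5-fold change left 601 genes higher and 564 lower, against 1829 and 2442. With it, 0 acetyl-CoA genes were lower. It left 1 lower Ehrlich gene, 1 higher and 2 lower alcohol dehydrogenases, 2 higher and 1 lower other ester-bond enzymes, 1 higher and 3 lower steryl ester genes, and 3 higher and 1 lower regulators. An adjusted p under 0.01 left 1 lower regulator. No block for slide or scan was run, since no slide or scan is given in the sources used here. No paired analysis was possible because the groups share no replicate number. The cause of these shifts was not tested.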
